A study of Homo sapiens with 3 samples.

Results

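Chromatin-modifying enzymes were described in SHSY5Y, a cell line from a human neuroblastoma that is usually written SH-SY5Y, as 56 of the 60660 genes of the expression table. The 56 genes were taken by symbol for what their products do to histones and DNA, through their GENCODE identifiers. No measured value was a criterion, but the choice was made with earlier results of these data known. They fall into 11 classes: Polycomb repressive complexes PRC2 and PRC1, methyltransferases of H3K4, of H3K36 and H3K79, and of H3K9, lysine demethylases, deacetylases, acetyltransferases, BET readers, genes of DNA methylation, and TET dioxygenases. RNA was sequenced from 3 separate flasks of adherent, untreated cells at about 60% confluency, grown with fetal bovine serum, as stranded mRNA libraries made from 500 ng of total RNA. The flasks form 1 group with replicates 1, 2 and 3, and there is no second line, genotype, treatment or time point. All 3 are cultures of 1 established tumour line, so p-values concern flasks and not tumours. In the moderated test used below, a gene's spread between flasks is drawn toward that of all genes tested. The comparisons that the design allows are between genes within the same RNA.

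Histone modifications are written by methyltransferases and acetyltransferases, removed by demethylases and deacetylases, and read by proteins such as the BET bromodomain family. PRC2 places methyl groups on H3K27 and PRC1 ubiquitylates H2A, both linked to silencing of developmental genes. DNMT1 copies CpG methylation onto newly made DNA with the help of UHRF1, the DNMT3 enzymes add it to unmethylated sites, and TET enzymes oxidise it. In neuroblastoma, EZH2, KDM1A, HDACs and BET proteins have each been studied as drug targets.

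The deposited values are FPKM, in which a gene's reads are scaled to its length in kilobases and to the library total, so levels of different genes are compared per length. From the steps of low values, depth was estimated at about 21700000, 28450000 and 43550000 reads in replicates 1, 2 and 3, where 3 reads on an effective length of 1 kb equal 0.138, 0.105 and 0.0689 FPKM. That floor covers counting error only. The cell line label was checked against markers: all 7 sympathoadrenal neuroblast genes (HAND2, GATA3, PHOX2A, DBH, CHGA, STMN2 and ELAVL4) were called above 1 FPKM, with means of 275 to 2405 FPKM. Of 5 immune markers 4 were called below 1 FPKM and CD3E was listed at 0 (summed 0.466 to 0.919 FPKM per library). Of 4 endothelial markers 3 were called below and CDH5 was listed at 0 (summed 0.012 to 0.111). Of 5 fibroblast markers 4 were called above 1 FPKM (PDGFRB, DCN, LUM and COL1A1, summed level of the list 50.1 to 57.2 FPKM per library), and of 5 Schwann or glial markers GFAP alone was called above (summed 6.81 to 8.07), with SOX10 listed at 0 in replicates 1 and 2 and at 0.034 FPKM in replicate 3. Of 4 epithelial markers 3 were called below and EPCAM neither (summed 1.76 to 3.44 FPKM). The part of these genes in the levels below was not tested. With bulk RNA, fewer cells with a transcript and less of it per cell cannot be told apart.

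Start regions of genes whose levels are followed below are shown first. Windows of RefSeq (GRCh38.p14) were found for 51 of the 56 genes, and CBX2, CBX8, DOT1L, HDAC5 and SETD1B were not matched. In 6 of the 51 (11.8%), a window from 250 bases before to 50 after a start held at least 1 of the 8-base words TTTCCCGC, TTTCGCGC, TTTGCCGC or TTTGGCGC on either strand. These words are the letters of E2F-type sites, which are known from genes of DNA replication. The share was 5.36% over 14833 protein-coding genes with a window and 7.40% over the 6808 of them with a level above the expressed median. Genes can have several windows, and 30 of the 51 genes had 1, against 10934 of the 14833. Among genes with 1 window the shares were 13.3% (4 of 30), against 4.40% of protein-coding genes and 6.28% of those above the expressed median. The 6 genes are DNMT1, UHRF1, EZH2, SUZ12, NSD2 and EZH1. Below, 200 bases before and 30 after the start are printed 5′ to 3′ along the gene, with the matched word in capitals. They are shown for DNMT1, UHRF1 and EZH2, which had their lowest value in replicate 2, and for EZH1, which did not. SUZ12 and NSD2 were also lowest there, as were 25 of the 56 genes in all. The share of all protein-coding genes lowest in replicate 2 was not counted. A link between the words and replicate 2 was not tested. A match describes letters and is not a mapped binding site. A RefSeq start need not be the outermost start of a gene: those printed for DNMT1, UHRF1, EZH2, EZH1, HDAC2 and DNMT3B lie inside the gene's GENCODE span.
DNMT1 (chr19:10194924-10195153, minus strand): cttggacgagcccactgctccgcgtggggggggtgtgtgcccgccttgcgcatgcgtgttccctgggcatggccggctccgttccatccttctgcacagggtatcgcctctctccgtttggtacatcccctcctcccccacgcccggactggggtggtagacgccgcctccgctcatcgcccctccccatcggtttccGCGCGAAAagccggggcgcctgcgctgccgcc
UHRF1 (chr19:4909301-4909530, plus strand): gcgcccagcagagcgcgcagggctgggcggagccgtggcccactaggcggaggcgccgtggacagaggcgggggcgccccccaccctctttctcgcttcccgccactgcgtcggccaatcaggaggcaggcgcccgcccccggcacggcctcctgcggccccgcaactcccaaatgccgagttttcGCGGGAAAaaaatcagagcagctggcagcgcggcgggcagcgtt
EZH2 (chr7:148884262-148884491, minus strand): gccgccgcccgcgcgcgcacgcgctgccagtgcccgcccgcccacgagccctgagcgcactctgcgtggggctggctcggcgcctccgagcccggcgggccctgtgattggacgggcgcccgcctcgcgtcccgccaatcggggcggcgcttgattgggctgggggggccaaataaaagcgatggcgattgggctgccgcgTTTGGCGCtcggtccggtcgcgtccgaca
EZH1 (chr17:42745011-42745240, minus strand): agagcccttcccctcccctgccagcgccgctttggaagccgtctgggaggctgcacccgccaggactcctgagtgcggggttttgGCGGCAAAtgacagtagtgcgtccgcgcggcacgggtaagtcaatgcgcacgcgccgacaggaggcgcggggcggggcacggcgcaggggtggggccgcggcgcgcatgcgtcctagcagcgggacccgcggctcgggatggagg

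Counted from the start as base 1, with no base 0, the word spans bases -2 to 6 in DNMT1, -14 to -7 in UHRF1, 2 to 9 in EZH2 and -115 to -108 in EZH1. It lies on the opposite strand in DNMT1, UHRF1 and EZH1. In SUZ12 it spans -189 to -182, in NSD2 -77 to -70, and a further start of UHRF1 has it at -160 to -153. CpG content was high around these starts, with a median of 30 CpGs per window for the 51 genes, against 22 for all protein-coding genes with a window and 26 for those above the expressed median. The windows of HDAC2, the highest of the 56 genes, of CBX7, the lowest, and of DNMT3B, whose window had the fewest CpGs, are shown with each CpG in capitals.
HDAC2 (chr6:113971119-113971348, minus strand): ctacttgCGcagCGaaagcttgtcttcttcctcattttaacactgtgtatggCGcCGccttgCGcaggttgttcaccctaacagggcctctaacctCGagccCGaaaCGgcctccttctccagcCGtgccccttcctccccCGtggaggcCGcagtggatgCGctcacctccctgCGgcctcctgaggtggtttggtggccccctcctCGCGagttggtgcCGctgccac
CBX7 (chr22:39152651-39152880, minus strand): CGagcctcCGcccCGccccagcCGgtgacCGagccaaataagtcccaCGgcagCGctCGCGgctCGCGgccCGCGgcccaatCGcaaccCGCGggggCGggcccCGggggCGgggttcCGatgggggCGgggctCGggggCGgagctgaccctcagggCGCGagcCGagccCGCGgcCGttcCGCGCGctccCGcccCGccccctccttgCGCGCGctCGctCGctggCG
DNMT3B (chr20:32779652-32779881, plus strand): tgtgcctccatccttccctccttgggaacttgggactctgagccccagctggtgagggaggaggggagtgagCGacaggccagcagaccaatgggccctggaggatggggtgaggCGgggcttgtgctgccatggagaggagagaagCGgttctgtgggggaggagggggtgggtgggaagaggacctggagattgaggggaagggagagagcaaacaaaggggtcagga

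The 230 printed bases hold 16 CpGs in HDAC2, 40 in CBX7 and 3 in DNMT3B, so the gene with the lowest level had more CpGs in the window shown than the one with the highest. The largest count of the 51 genes, 63 in the full window, belonged to NSD2.

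Nearly the whole set was expressed. With limma's moderated test on log2(FPKM + 0.1) and Benjamini-Hochberg adjustment over all genes tested, 55 of the 56 genes were called above 1 FPKM at an adjusted p under 0.05. The share called above was 45.2% of all 31957 genes tested and 70.6% of the 16754 protein-coding ones. The count called below was 0, also at an unadjusted p under 0.05, where 43.5% of all genes and 24.5% of protein-coding genes were called below. The exception was CBX7, called neither. All 56 genes passed the filter of a value above 0 in at least 1 library. The calls of the 55 genes held without each library in turn.

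A higher level was set by the median of each library over protein-coding genes with a value above 0 in any library, at 9.07, 9.02 and 9.18 FPKM in replicates 1, 2 and 3, called the protein-coding median here. Against it, 43 of the 56 genes were called above and 8 below. Of all genes tested 26.1% were called above and 66.9% below, and of protein-coding genes 46.0% and 46.1%. Medians over the genes' means were 20.3 FPKM for the 56 genes, 9.13 FPKM for protein-coding genes and 1.08 FPKM for all genes tested. The 8 genes below were TET1, TET2, TET3, DNMT3B, KAT2B, SUV39H1, SETD1B and CBX7, and the 5 called neither were KMT2B, EP300, KDM6A, SETD1A and JARID2. The count below was 5 without replicate 3. These counts depend on the reference chosen: against the median of protein-coding genes that averaged 1 FPKM or more (16.9 to 17.4 FPKM), 27 were called above and 16 below, and against the median of all protein-coding genes in the table (5.26 to 5.37 FPKM), 49 were called above and 3 below (SETD1B, DNMT3B and CBX7).

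**Figure D1:**
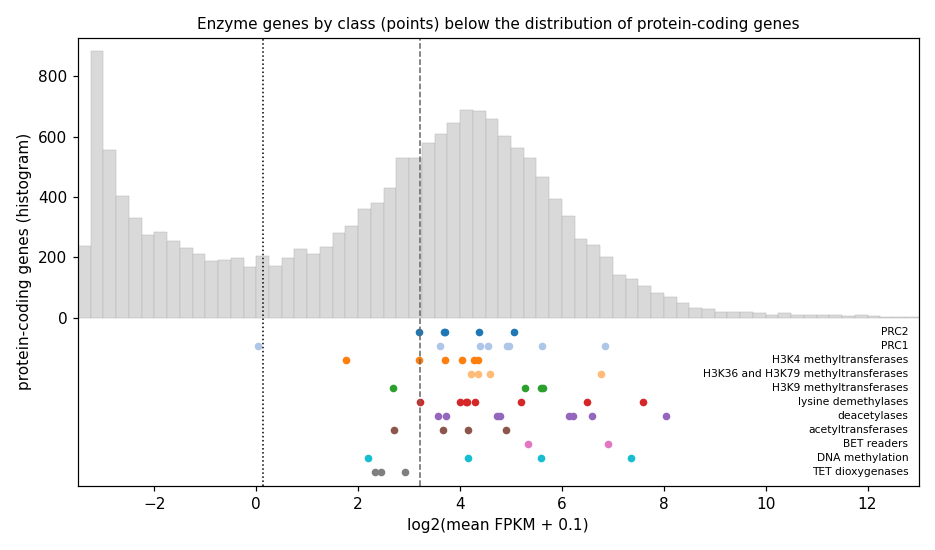
Histogram of log2(mean FPKM + 0.1) of protein-coding genes (vertical axis, number of genes), with the 56 chromatin enzyme genes as points in 1 row per class beneath it. The dotted line marks 1 FPKM and the dashed line the protein-coding median, and 43 of the 56 genes were called above the dashed line and 8 below it.

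**Figure D2:**
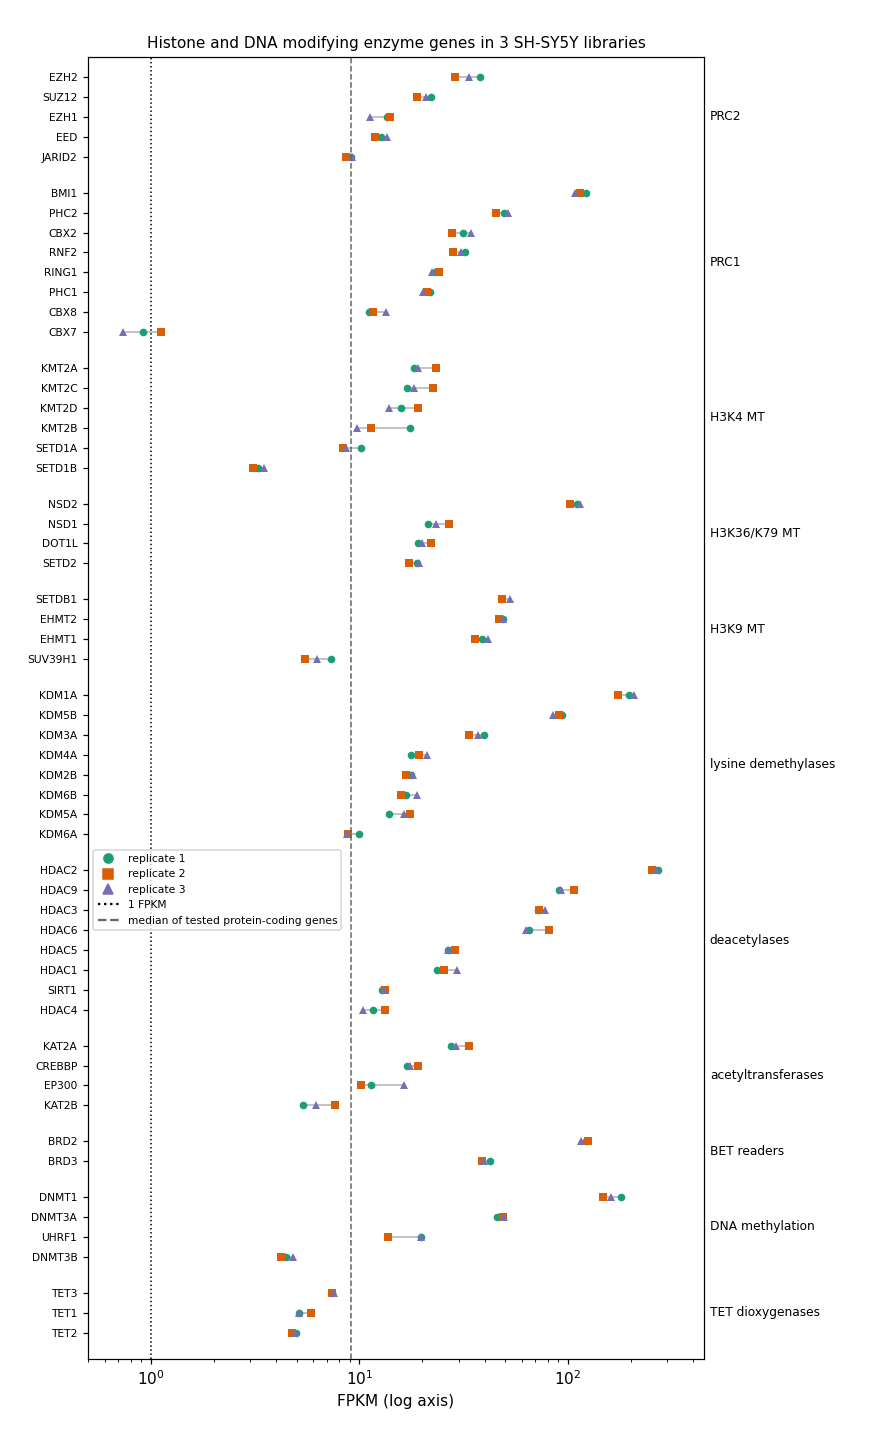
FPKM (log axis) of each of the 56 genes in replicates 1, 2 and 3, grouped by class and ordered by mean within a class. Values ran from 0.733 FPKM (CBX7, replicate 3) to 271 FPKM (HDAC2, replicate 1), and all 3 TET genes lay left of the protein-coding median.

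Of the 5 PRC2 genes, EZH2, the catalytic subunit of dividing cells, was the highest. EZH2 (chromosome 7, 148807383 to 148884321) stood at 37.9, 28.9 and 33.4 FPKM in replicates 1, 2 and 3, and was called above the protein-coding median (log2 difference 1.86, SE 0.11, limma adjusted p = 0.000468). Its paralog EZH1, the weaker enzyme found mostly in non-dividing cells, stood at 13.6, 14.1 and 11.3 FPKM. The 2 genes did not overlap: EZH2 exceeded EZH1 by 1.35 ± 0.28 on the log2 scale (SD, n = 3), and it held 71.9% ± 4.02 of their summed FPKM. SUZ12, the scaffold subunit, averaged 20.6 ± 1.52 FPKM and EED, which binds methylated H3K27, 12.7 ± 0.864. JARID2, an accessory subunit that helps to recruit the complex, was called neither at 8.998 ± 0.357 FPKM. Thus 4 of 5 PRC2 genes were called above the median, but the calls for EZH1 (without replicate 1 or 2) and EED (without replicate 1 or 3) were lost when a library was left out. A pseudogene copy, SUZ12P1, was listed at 16.6, 15.3 and 16.8 FPKM, and reads that SUZ12 shares with it could have been split between them.

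PRC1 had the largest ratio of highest to lowest gene among the 11 classes of the 56 genes. BMI1, the ring finger partner of the catalytic subunits, stood at 122, 115 and 108 FPKM, above the other 7 genes in every library. RNF2, the main H2A ubiquitin ligase of the complex, averaged 30.3 ± 2.03 FPKM and its paralog RING1 23.2 ± 0.792, a within-library log2 difference of 0.38 ± 0.14. The Polyhomeotic subunits, which polymerise the complex, were unequal: PHC1 averaged 21.02 ± 0.744 FPKM and PHC2 48.9 ± 3.22 FPKM. The chromobox subunits, which read methylated H3K27, held the largest of the 22 pair differences taken. CBX2 stood at 31.6, 27.9 and 34.2 FPKM, while CBX7 (chromosome 22, 39120167 to 39152674) stood at 0.917, 1.12 and 0.733 FPKM, and CBX8 averaged 12.1 ± 1.22 FPKM. CBX2 exceeded CBX7 by 4.95 ± 0.42 on the log2 scale, a ratio of means of 33.8, and exceeded CBX8 by 1.36 ± 0.12. CBX2 held 70.5% ± 1.87 of the summed FPKM of these 3 genes.

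CBX7 was the only one of the 56 genes near the 1 FPKM level (log2 difference -0.12, limma adjusted p = 0.473), with 1 library above it and 2 below. It was called below after rescaling to TPM (log2 difference -0.56, limma adjusted p = 0.0175), which divides the values by 1.39, 1.46 and 1.38 in replicates 1, 2 and 3. Against the protein-coding median it was called below at -3.18 (limma adjusted p = 0.000273). CBX8 was called above the median, a call lost without any 1 of the libraries. PHC1 shares 18.1% of its exonic bases with M6PR on the other strand (116 ± 1.68 FPKM), and BMI1 shares 23.3% with the COMMD3-BMI1 readthrough gene on its own strand (21.8 ± 3.63 FPKM). The value of PHC1 is uncertain because the labels do not state whether the authors counted by strand, and that of BMI1 because exons shared on 1 strand can divide its reads.

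Among the H3K4 methyltransferases, the large MLL-family genes lay within a narrow band. KMT2A, the MLL1 gene rearranged in leukaemias, stood at 18.2, 23.3 and 19.2 FPKM. The enhancer enzymes KMT2C and KMT2D averaged 19.3 ± 2.93 and 16.3 ± 2.67 FPKM. KMT2A, KMT2C and KMT2D had their highest value in replicate 2 and were called above the protein-coding median. KMT2D minus KMT2C was -0.24 ± 0.16 on the log2 scale, and this was the 1 pair of the 22 compared whose values overlapped between libraries. KMT2B, the MLL2 gene, stood at 17.5, 11.4 and 9.74 FPKM. Replicate 1 was 1.79 times replicate 3, and KMT2B was called neither (limma adjusted p = 0.118). SETD1A, a catalytic subunit of the COMPASS complex that places most H3K4 trimethylation, was called neither at 9.09 ± 1.01 FPKM. Its paralog SETD1B was called below at 3.29 ± 0.211 FPKM, and SETD1A exceeded it by 1.44 ± 0.17 on the log2 scale.

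All 4 methyltransferases of H3K36 and H3K79 were called above the protein-coding median. NSD2, which dimethylates H3K36 and is activated by translocation in myeloma, stood at 111, 102 and 115 FPKM. NSD1, its paralog mutated in Sotos syndrome, stood at 21.4, 26.8 and 23.4 FPKM. The libraries did not overlap, and NSD2 exceeded NSD1 by 2.19 ± 0.23 on the log2 scale, a ratio of 4.57. DOT1L, the H3K79 methyltransferase, averaged 20.4 ± 1.48 FPKM and SETD2, which trimethylates H3K36 behind RNA polymerase II, 18.5 ± 0.993. DOT1L overlaps PLEKHJ1 on the other strand over 4.69% of its exonic bases, and PLEKHJ1 stood at 40.0 ± 8.27 FPKM.

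H3K9 methyltransferases had a class median of 43.6 FPKM. SETDB1, which silences endogenous retroviruses, averaged 49.6 ± 2.78 FPKM, and the partners EHMT2 (G9a) and EHMT1 (GLP), which dimethylate H3K9 as a heterodimer, 48.3 ± 1.204 and 38.8 ± 2.82. EHMT2 exceeded EHMT1 in each library, by 0.32 ± 0.08 on the log2 scale. SUV39H1, which trimethylates H3K9 in pericentromeric heterochromatin, stood apart at 7.31, 5.47 and 6.26 FPKM. All 3 libraries lay below their own protein-coding median, and the call below (log2 difference -0.52, limma adjusted p = 0.0175) was lost without replicate 2 or replicate 3. SETDB1 shares 13.4% of its exonic bases with CERS2 on the other strand, at 159.6 ± 8.31 FPKM, so its value is uncertain.

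The demethylases were led by KDM1A (LSD1), the flavin-dependent enzyme that acts on H3K4 in the CoREST complex. KDM1A stood at 196, 175 and 207 FPKM, a log2 difference of 4.39 from the protein-coding median (SE 0.08, limma adjusted p = 5.89e-05), and held 48.3% ± 1.98 of the summed FPKM of the 8 demethylase genes. The H3K4 demethylase KDM5B followed at 93.6, 90.4 and 84.5 FPKM. Its paralog KDM5A stood at 13.9, 17.4 and 16.4 FPKM, and KDM5B held 84.9% ± 1.87 of their sum. These 2 paralogs differed by 2.49 ± 0.22 on the log2 scale, with no overlap. KDM3A, an H3K9 demethylase that responds to hypoxia, averaged 36.7 ± 3.07 FPKM. KDM4A, which acts on H3K9 and H3K36, averaged 19.4 ± 1.78, and KDM2B, which brings a PRC1 variant to CpG islands, 17.5 ± 0.662. The H3K27 demethylases differed as well, with KDM6B (JMJD3) at 17.2 ± 1.53 FPKM and KDM6A (UTX) at 9.19 ± 0.683, a log2 difference of 0.89 ± 0.19. KDM6A was called neither, and 7 of 8 demethylases were called above the median. KDM4A overlaps KDM4A-AS1 (22.2 ± 1.74 FPKM, 8.97% of exonic bases) and KDM5A overlaps CCDC77 (33.4 ± 2.43 FPKM, 1.51%), both on the other strand.

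All 8 deacetylase genes were called above the protein-coding median, with a class median of 48.6 FPKM. HDAC2 (chromosome 6, 113933028 to 114011308), a class I enzyme of the Sin3, NuRD and CoREST complexes, was the highest of the 56 genes at 271, 253 and 264 FPKM. Its log2 difference from the median was 4.84 (SE 0.07, limma adjusted p = 5.07e-05), and 97.95% of protein-coding genes tested lay below it. HDAC1, which shares those complexes, stood at 23.6, 25.6 and 29.4 FPKM. HDAC2 exceeded HDAC1 by 3.33 ± 0.18 on the log2 scale, a ratio of 10.03, and no library of one overlapped the other. HDAC3, another class I enzyme, averaged 74.3 ± 3.25 FPKM, and HDAC2 held 72.3% ± 1.44 of the summed FPKM of HDAC1, HDAC2 and HDAC3. HDAC8, a class I gene outside the 56, averaged 38.5 ± 0.584 FPKM and is not in that sum.

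Of the class IIa deacetylases, which shuttle between nucleus and cytoplasm, HDAC9 was the highest. HDAC9 stood at 90.4, 107 and 92.6 FPKM, against 26.7, 28.7 and 26.8 FPKM for HDAC5 and 11.6, 13.2 and 10.4 FPKM for HDAC4. The 3 genes did not overlap, and HDAC9 exceeded HDAC4 by 3.03 ± 0.10 and HDAC5 exceeded HDAC4 by 1.22 ± 0.13 on the log2 scale. HDAC9 held 71.1% ± 0.779 of the summed FPKM of HDAC4, HDAC5 and HDAC9. HDAC7, a class IIa gene outside the 56, averaged 27.7 ± 2.44 FPKM and is not in that sum. HDAC6, the cytoplasmic tubulin deacetylase, averaged 69.9 ± 9.92 FPKM, and the NAD-dependent deacetylase gene SIRT1 13.1 ± 0.248. The call above the median was lost for HDAC4 without any 1 library and for SIRT1 without replicate 3 (limma adjusted p = 0.0529).

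Acetyltransferase genes lay lower, with a class median of 15.2 FPKM. KAT2A (GCN5), the H3K9 acetyltransferase of the SAGA complex, stood at 27.4, 33.4 and 29.1 FPKM. Its paralog KAT2B (PCAF) stood at 5.35, 7.62 and 6.19 FPKM and was called below the median (limma adjusted p = 0.0288), a call lost without replicate 1 or replicate 3. KAT2A exceeded KAT2B by 2.22 ± 0.11 on the log2 scale, a ratio of 4.69. Of the paralogous enhancer coactivators, CREBBP (CBP) averaged 17.8 ± 1.09 FPKM and was called above the median. EP300 (p300) stood at 11.4, 10.2 and 16.3 FPKM, highest in replicate 3, and was called neither (limma adjusted p = 0.0744). The difference of CREBBP over EP300 was 0.57, 0.89 and 0.11 on the log2 scale in replicates 1, 2 and 3, with a mean of 0.52 and an SD of 0.39. The BET readers BRD2 and BRD3, which bind acetylated histones through paired bromodomains, averaged 120.4 ± 4.67 and 40.3 ± 1.83 FPKM, a ratio of 2.99.

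DNA methylation genes ran from very high to low. DNMT1 (chromosome 19, 10133345 to 10231286), the maintenance methyltransferase, stood at 181, 148 and 160.4 FPKM, and 96.4% of protein-coding genes tested lay below it. The de novo enzyme gene DNMT3A stood at 45.9, 49.1 and 49.4 FPKM, and its paralog DNMT3B, highest in early embryonic cells, at 4.43, 4.22 and 4.81 FPKM. Thus DNMT1 exceeded DNMT3A by 1.75 ± 0.20 and DNMT3A exceeded DNMT3B by 3.40 ± 0.10 on the log2 scale, a ratio of 10.7 for the second pair. DNMT1 held 75.5% ± 2.42 of the summed FPKM of the 3 genes, and DNMT3B was called below the protein-coding median (log2 difference -1.004, limma adjusted p = 0.000864). UHRF1, which brings DNMT1 to hemimethylated DNA, stood at 19.8, 13.7 and 19.7 FPKM. Replicate 2 was lower than the other libraries, and the call above the median (limma adjusted p = 0.00731) was lost without replicate 3 (0.0537).

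The TET genes, whose products oxidise methylcytosine, were all 3 called below the protein-coding median. TET3 stood at 7.41, 7.41 and 7.56 FPKM, TET1 at 5.12, 5.87 and 5.17, and TET2 at 4.97, 4.78 and 4.94. TET3 was the highest in each library, with 42.0% ± 0.902 of the TET sum. TET1 minus TET3 was -0.47 ± 0.12 and TET2 minus TET3 -0.60 ± 0.03 on the log2 scale. The call for TET3 (log2 difference -0.28, limma adjusted p = 0.0205) was lost without any 1 library, and those for TET1 and TET2 held without each. Against the median of all protein-coding genes in the table the calls below ended: TET3 was then called above (log2 difference 0.48, limma adjusted p = 0.0049), and TET1 (0.011, adjusted p = 0.90) and TET2 (-0.12, adjusted p = 0.18) were called neither.

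Over the 22 pairs of genes with a like biochemical role, each difference had 1 sign in all 3 libraries, and 14 were at least 1 on the log2 scale. Pairs of other genes were not counted, so these counts are not shown to be particular to the set. With 3 libraries, the exact sign-flip test, two-sided, cannot fall below 0.25, which each pair reached (exact p = 0.25, adjusted over the pairs 0.25), so no pair difference passed the threshold. The pairs with the largest differences were CBX2 and CBX7 (4.95 ± 0.42), DNMT3A and DNMT3B (3.40 ± 0.10), HDAC2 and HDAC1 (3.33 ± 0.18), and HDAC9 and HDAC4 (3.03 ± 0.10). The ratio of difference to SD was smallest for KMT2A and KMT2B (0.69 ± 0.54) and CREBBP and EP300 (0.52 ± 0.39).

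**Figure D3:**
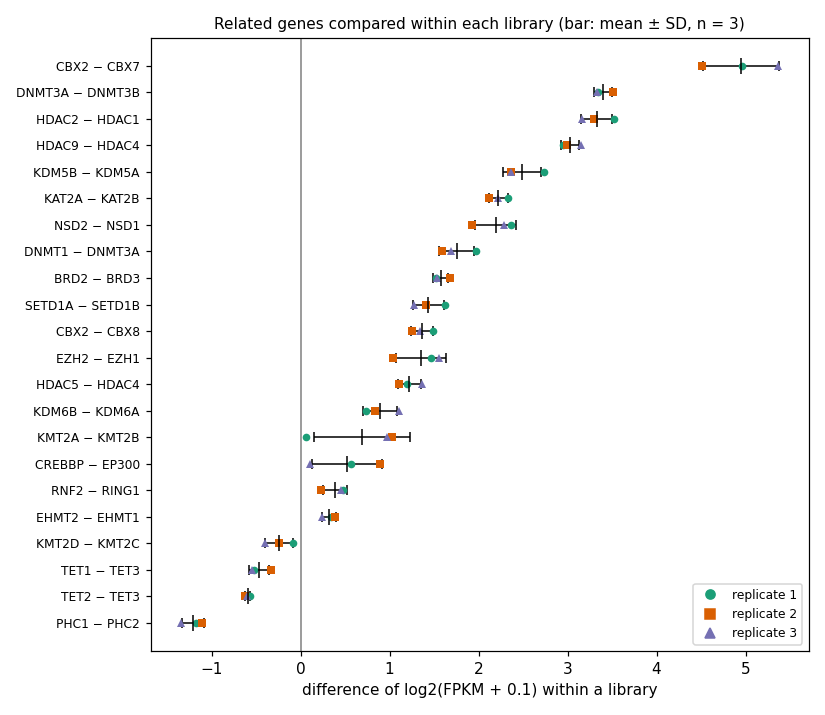
Within-library log2 difference of FPKM + 0.1 for 22 gene pairs, first-named gene minus second, with 1 point per library and bars for mean ± SD. All points of a pair lie on 1 side of 0, and the means run from 4.95 for CBX2 minus CBX7 to -1.21 for PHC1 minus PHC2.

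Flasks agreed closely for most of the genes. The median SD of log2 values was 0.11 for the 56 genes, against 0.10 for the 200 protein-coding genes nearest in level to each, and 53 of the 56 had a ratio of highest to lowest library under 1.5. The SD was highest for KMT2B (0.43), EP300 (0.35), UHRF1 (0.30) and CBX7. KMT2B, UHRF1, EP300 and HDAC6 lay at or above percentile 95 of their own neighbours, and TET3 had the lowest SD (0.02). No test was made of the spread.

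Replicates 1, 2 and 3 had the lowest value in 19, 25 and 12 of the 56 genes and the highest in 17, 19 and 20. The same counts were not taken over all protein-coding genes, so no difference of the set from them is shown. The shift of replicate 2 was taken as its log2 value minus the mean of replicates 1 and 3. No such shift was taken for the other libraries, so it does not show that replicate 2 stands apart. The largest shifts down were those of UHRF1 (-0.52), EP300 (-0.41), SUV39H1 (-0.30), EZH2 (-0.30), CBX2 (-0.23), KDM1A (-0.21), DNMT1 (-0.20) and KMT2B (-0.19). The largest shifts up were those of CBX7 (0.41), KAT2B (0.40), KMT2D (0.36), KMT2C (0.36), HDAC6 (0.34), KMT2A (0.32), HDAC4 (0.27) and NSD1 (0.26). In all, 32 of the 56 genes (57.1%) were lower in replicate 2, beside 55.2% of protein-coding genes averaging 1 FPKM or more.

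Genes of DNA replication and the cell cycle were read beside this, from a list chosen after the values were seen. All 18 were lower in replicate 2 than the mean of replicates 1 and 3, with a median shift of -0.37, where 55.2% of 12225 protein-coding genes averaging 1 FPKM or more were lower. Since the list was picked for this pattern, its count is a description only. MCM5, a subunit of the replicative helicase, stood at 65.8, 39.5 and 59.4 FPKM and RRM2, which makes deoxynucleotides, at 99.1, 63.0 and 95.5, while the proliferation marker MKI67 stood at 43.9, 43.3 and 46.95. The ratio of EZH2 to EZH1 was also least in replicate 2, with a log2 difference of 1.03, against 1.47 and 1.56 in replicates 1 and 3. The shift also differed between the longest transcripts and the rest. The 14 chromatin enzyme genes with a longest transcript over 9 kb had a median shift of 0.16, with 10 of them higher in replicate 2, and the 42 shorter ones -0.08, with 28 lower. Below 9 kb the shift of these few genes had no order by length. The class medians were 0.016 under 2 kb (2 genes), -0.15 at 2 to 4 kb, -0.063 at 4 to 6 kb and -0.14 at 6 to 9 kb. Among protein-coding genes that averaged 1 FPKM or more, the medians were 0.03 for 745 long genes and -0.03 for 11480 shorter ones. The share lower in replicate 2 was 42.15% of these long genes and 56.05% of the shorter ones. For the chromatin enzyme genes it was 28.57% and 66.67%. Within the shorter ones the medians were -0.031 under 2 kb, -0.032 at 2 to 4 kb, -0.021 at 4 to 6 kb and -0.011 at 6 to 9 kb. The part of length, of cell cycle genes and of depth in these shifts was not tested.

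**Figure D4:**
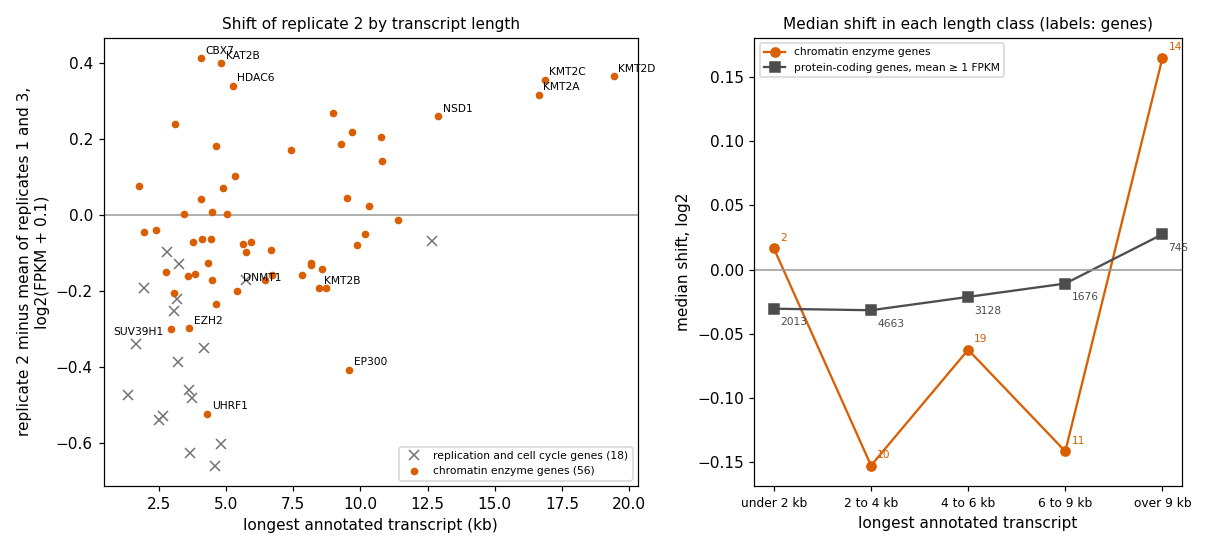
Left, the shift of replicate 2 (log2 of FPKM + 0.1, replicate 2 minus the mean of replicates 1 and 3) of the 56 chromatin enzyme genes and 18 replication and cell cycle genes against the longest annotated transcript in kb. Right, the median shift per length class, with the number of genes beside each point: it was 0.16 for the 14 chromatin enzyme genes over 9 kb, against 0.03 for protein-coding genes of that length.

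Other genes of the same pathways were counted the same way. Of 121 further genes in 12 classes, 118 were tested, 115 were called above 1 FPKM and 3 below, and 94 were called above and 13 below the protein-coding median, with the background shares given above. Their median was 21.6 FPKM. Among Polycomb partners, the histone-binding PRC2 subunit gene RBBP7 averaged 192 ± 18.3 FPKM and the PRC2 inhibitor gene EZHIP 0.058 ± 0.0279, and in PRC1 PCGF2, the closest paralog of BMI1, averaged 77.4 ± 2.09 and PCGF6 4.195 ± 0.747. DPY30, a shared subunit of the H3K4 complexes, reached 83.5 ± 4.35 FPKM and the meiotic enzyme gene PRDM9 was listed at 0. NSD3, a paralog of NSD1 and NSD2, averaged 55.3 ± 0.475 FPKM and SETMAR 11.5 ± 0.907.

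TRIM28, the corepressor that brings SETDB1 to retroviral elements, was the highest of these genes at 594 ± 21.99 FPKM, and SETDB2 was the lowest of its class at 4.79 ± 0.362. Among demethylases KDM5C, an X-linked paralog of KDM5A and KDM5B, averaged 57.4 ± 3.85 FPKM and KDM4D 1.945 ± 0.167. Of the deacetylase list, the sirtuin gene SIRT7 was the lowest at 9.35 ± 0.257 FPKM. KAT7 (HBO1), an H3K14 acetyltransferase, averaged 39.0 ± 2.49 FPKM and its family member KAT6B 7.81 ± 0.397. The testis BET gene BRDT was listed at 0 in replicates 1 and 2 and at 0.139 FPKM in replicate 3. The methyl-CpG reader gene MBD2 averaged 36.1 ± 5.24 FPKM, and DNMT3L, the germline cofactor of DNMT3A, was listed at 0, as was the imprinting factor gene ZFP57.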

How the data were processed

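Gene expression was measured by RNA-seq in 3 libraries of SHSY5Y cells, 1 group, read as single 50-base reads. The authors deposited 1 table of FPKM values per gene and library, summing to 1389790.7, 1457403.3 and 1375658.7 FPKM in replicates 1, 2 and 3. Per the submitters' processing notes, the tools were Cufflinks 2.2.1, TopHat2 2.1.1, FastQC 0.10.1 and bcl2fastq, and the assembly was hg38. Not given in the sources used here are their roles, the annotation release and the strand setting.

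Identifiers were matched to GENCODE 29, which matched 57046 of 60660. Depth was estimated from low values of single-transcript genes with at least 600 exonic bases and an assumed fragment of 200 bases: 97.2%, 97.2% and 96.96% of 2964, 2777 and 2630 low values came within 0.1 of whole reads (20% by chance). Since FPKM are not counts, log2(FPKM + 0.1) was tested by limma 3.58.1 (R 4.3.3) with an intercept alone against 1 FPKM and against each library's median protein-coding gene, for each gene above 0 in any library. Differences on this scale understate those of low genes. Adjustment was over all genes tested. Tested on simulated data at the 1 FPKM level with 31940 genes, the test called 70% of 100 genes 0.5 log2 away, 90% of 100 genes 1 log2 away and 4.5% of 200 genes at the level. Tables and plots were made with matplotlib 3.10.9, scipy 1.17.1, pandas 2.3.3 and numpy 2.4.6 under Python 3.11.15.

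Genes named are the 56 members, the highest and lowest gene of each class of a wider list, genes of the other strand that overlap a member's exons at a higher mean, and cell type markers. ZFP57, SUZ12P1, COMMD3-BMI1, other wider-list genes and the replication and cell cycle list were named after their values were seen. A few genes under this rule are not reported here. Members, lists and pairs were chosen with earlier results of these data known. Alternatives were pseudocounts of 1 and 0.01, other filters, a variance trend, rescalings, levels of 0.5 and 5 FPKM, other medians and each library left out.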

Additional observations from a re-analysis of the deposited data

How the results depend on the processing

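With 3 flasks of 1 line and no second group, limits come from the few libraries, from an FPKM table without counts, and from reads shared between overlapping genes. The 55 genes above 1 FPKM stayed above that level in number under all alternatives but the level of 5 FPKM (49) and 0.5 FPKM (56). Members called below 1 FPKM numbered 0, against 1 in TPM and 2 at a level of 5 FPKM. The count above the protein-coding median was 43, against 27 with the median over genes averaging 1 FPKM or more (16.9 to 17.4 FPKM) and 38 to 40 without 1 library. The count below it was 8, against 16 with that median, 3 with the median over all protein-coding genes (5.26 to 5.37 FPKM), and 5 to 6 without 1 library. In the runs without 1 library, the protein-coding median was also taken anew, over genes above 0 in the remaining libraries. The part of the reference level and of fewer samples in these changes was not tested.

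Values that turned sign were these, as log2 differences. CBX7 against 1 FPKM was -0.12, against -0.26 to 0.021 without 1 library, 0.40 with values rescaled to the sum of nuclear protein-coding genes and 0.75 at a level of 0.5 FPKM. Against 5 FPKM, SETD1B was -0.59, DNMT3B -0.15 and TET2 -0.029. Against the higher median, EZH1 was -0.41, EED -0.43, CBX8 -0.51, KMT2B -0.46, KMT2D -0.088, KDM5A -0.11, KDM6A -0.90, KDM6B -0.0039, HDAC4 -0.55, SIRT1 -0.39 and EP300 -0.47. Against the lower median, JARID2 was 0.74, SETD1A 0.75, SUV39H1 0.24, KAT2B 0.24, TET1 0.011 and TET3 0.48. KDM6A, called neither, was between -0.083 and -0.026 without 1 library. Leaving out 1 library ended the call against the median for 6 of the 43 genes above and 3 of the 8 below, with limma adjusted p of 0.0522 to 0.193 and 0.0540 to 0.0911. With all libraries, the moderated SE of TET3 (0.064) and SIRT1 (0.066) exceeded their own SD between flasks (0.016 and 0.027). The lost calls of TET3 and SIRT1 therefore do not show that 1 library stood apart. All 22 pair differences kept their sign with the other pseudocounts and without each library. That outcome was fixed beforehand: each difference already had 1 sign in every library, and a pseudocount cannot turn a sign. No paired analysis was possible because the labels give only 1 group of samples, so no groups could be paired by replicate; the gene pairs were compared within libraries.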

Other observations

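Methyltransferases of H4K20 and of arginine, which have no gene among the 56, were read from the wider list. Of 9 arginine methyltransferase genes 8 were called above 1 FPKM and 7 above the protein-coding median by limma. PRMT1, the main asymmetric arginine methyltransferase, stood at 284, 264 and 277 FPKM, and PRMT5, the main symmetric one, at 211, 225 and 218 FPKM. PRMT1 was higher than PRMT5 and than HDAC2 in every library, and PRMT5 lay below HDAC2 in every library. CARM1, which methylates H3R17, averaged 83.8 ± 6.89 FPKM. PRMT8, known from brain, was the lowest at 0.512 ± 0.124 FPKM and was called below 1 FPKM.

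The H4K20 monomethyltransferase gene KMT5A averaged 30.2 ± 2.39 FPKM and the dimethyltransferase genes KMT5B and KMT5C 29.9 ± 0.522 and 13.4 ± 1.75. All 3 were called above the protein-coding median. L3MBTL1, a reader of methylated H4K20, stood at 9.33, 14.9 and 11.9 FPKM and was called neither, and L3MBTL3 was the lowest at 2.67 ± 0.411 FPKM. All SDs are over 3 libraries.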
